A study of Mus musculus with 9 samples.

Results

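The Schlafen genes are a family of related mouse genes that lie side by side on chromosome 11 and are best known from lymphocytes and myeloid cells. The 7 symbols examined here were Slfn1, Slfn2, Slfn3, Slfn4, Slfn5, Slfn8 and Slfn9, taken by name from the platform annotation, with the brightest probe set for each gene. The family was chosen by name with earlier results of these arrays in view, among them the difference of Slfn2 between Tyk2-/- and WT, so that difference is given as a description of these arrays and not as independent evidence. Of the 22180 genes with a probe set of their own, 6 were Schlafen members, each with 1 such probe set, so brightness decided nothing between probe sets. Slfn9 had none, because the annotation gives its probe set to Slfn9 and Slfn8 together.

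Natural killer (NK) cells from spleens of female C57BL/6N mice were compared between 3 genotypes, with 1 array per genotype in each of 3 independent experiments. The mice lacked Tyk2 (Tyk2-/-), carried a kinase-inactive Tyk2 (Tyk2K923E) or were wild type (WT). Every array held cells from a pool of 3 to 4 mice that had been enriched with DX5 beads and then kept for 7 days in 5000 U/ml recombinant human IL-2, which all groups received. The age of the mice, the structure of the Tyk2-/- allele and any littermate relation are not given in the sources used here.

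Schlafen proteins fall into a short group (Slfn1 and Slfn2), an intermediate group (Slfn3 and Slfn4) and a long group (Slfn5, Slfn8 and Slfn9) whose members carry a helicase-like region. Several Schlafen genes are induced by type I interferons, whose receptor signals through the kinases TYK2 and JAK1. In mice, the short members are tied to lymphocyte quiescence: Slfn1 slows the growth of T cells, and loss of Slfn2 function leaves T cells unable to stay quiescent.

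Interferon-induced genes often carry the interferon-stimulated response element (ISRE), so the promoter windows of the members were read first. Each window spans 250 bases before and 50 bases after the annotated start site, in RefSeq sequence of build GRCm38.p6, and all 7 members had one. The 4 windows below belong to Slfn2, Slfn1 and Slfn8, which had the largest differences from WT, and to Slfn9, whose window resembles that of Slfn8. Capitals mark matches to CTTCCTG, an ETS-type motif, in Slfn2 and Slfn1, and matches to the ISRE letters (GAAA, any 2 bases, then GAAA), read on the opposite strand, in Slfn8 and Slfn9.
Slfn2, chr11:83064862-83065161, plus strand: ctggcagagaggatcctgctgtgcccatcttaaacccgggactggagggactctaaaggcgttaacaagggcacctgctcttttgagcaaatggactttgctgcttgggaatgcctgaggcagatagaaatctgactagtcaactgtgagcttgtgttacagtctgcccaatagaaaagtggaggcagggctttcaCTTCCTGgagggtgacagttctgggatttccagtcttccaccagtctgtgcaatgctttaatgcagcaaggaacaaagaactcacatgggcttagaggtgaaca
Slfn1, chr11:83116570-83116869, plus strand: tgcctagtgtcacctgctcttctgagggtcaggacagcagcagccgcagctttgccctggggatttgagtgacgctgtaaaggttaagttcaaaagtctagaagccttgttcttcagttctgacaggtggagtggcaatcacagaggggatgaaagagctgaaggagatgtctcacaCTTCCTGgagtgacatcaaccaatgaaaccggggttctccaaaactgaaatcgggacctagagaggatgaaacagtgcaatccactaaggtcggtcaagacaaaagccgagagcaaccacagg
Slfn8, chr11:83020761-83021060, minus strand: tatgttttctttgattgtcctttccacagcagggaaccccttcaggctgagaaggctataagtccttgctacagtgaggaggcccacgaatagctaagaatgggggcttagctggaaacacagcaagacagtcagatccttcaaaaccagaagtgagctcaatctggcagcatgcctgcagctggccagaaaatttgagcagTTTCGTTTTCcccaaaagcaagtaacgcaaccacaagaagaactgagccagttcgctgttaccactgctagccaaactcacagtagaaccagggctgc
Slfn9, chr11:82991781-82992080, minus strand: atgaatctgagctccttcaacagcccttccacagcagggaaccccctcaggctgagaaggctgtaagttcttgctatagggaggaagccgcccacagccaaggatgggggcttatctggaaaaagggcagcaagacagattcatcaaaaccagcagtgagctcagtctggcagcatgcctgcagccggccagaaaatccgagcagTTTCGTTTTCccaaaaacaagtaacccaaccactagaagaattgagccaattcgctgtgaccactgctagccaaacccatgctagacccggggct

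The ISRE letters were searched on both strands and were found in 3 of 7 members, namely Slfn5, Slfn8 and Slfn9, against 3.44% of 32851 promoter windows of the same length. Their first base lay at -48 in Slfn8, -45 in Slfn9 and -155 in Slfn5, counted from the start site. A second annotated start of Slfn8 gives an overlapping window that holds the same match at -136. The letters CTTCCTG, chosen after these sequences had been seen, were found in the other 4 members, Slfn1, Slfn2, Slfn3 and Slfn4, and in 13.3% of all windows. The letters TTCNNNGAA of the gamma-activated site (GAS) were in 0 of 7 members and in 8.3% of all windows. No window held matches to more than 1 of these 3 motifs, and a match or its absence describes only these letters.

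**Figure D1:**
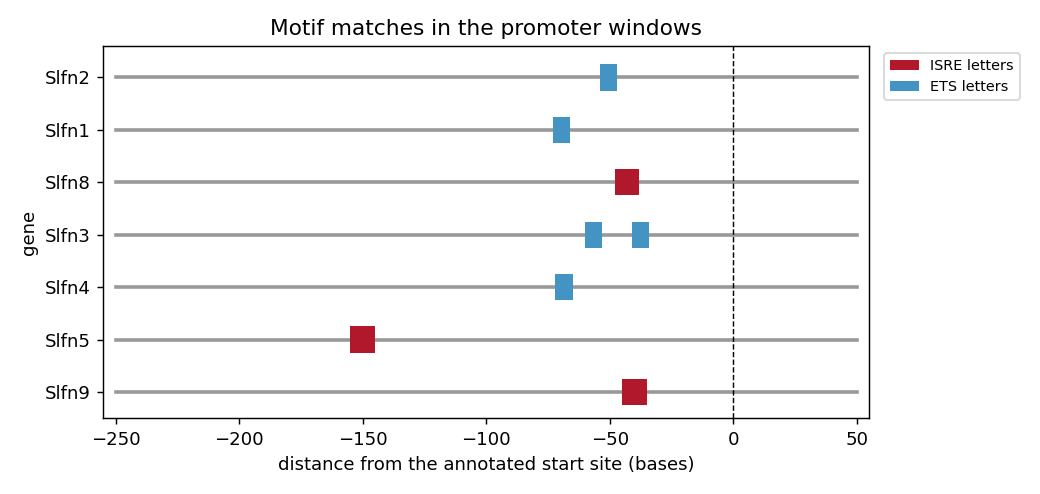
Motif matches in the promoter window of each of the 7 Schlafen members, by distance from the annotated start site in bases. Blocks mark the ISRE or the ETS-type letters on either strand: the ISRE letters appear in Slfn8, Slfn5 and Slfn9, and the ETS letters in Slfn2, Slfn1, Slfn3 and Slfn4.

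The long genes Slfn8 and Slfn9 are neighbours on the minus strand, and their aligned windows were identical at 84% of 300 bases, with a longest shared run of 20 bases. The other 20 pairs of members reached 55.7% to 62.3%. Among those, Slfn1 and Slfn4 shared a run of 15 bases around the CTTCCTG letters, and Slfn1 and Slfn2 shared 12 bases there. Slfn2, Slfn1, Slfn4 and Slfn3 follow each other in this order on the plus strand.

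The values are log2 units after robust multi-array averaging (RMA), and array medians lay between 5.42 and 5.48. Testing was limited to genes at or above the array median on 3 or more of the 9 arrays, which left 12579 genes. Slfn1, Slfn2, Slfn3 and Slfn8 did so on all 9 arrays, with Slfn1 nearest to the limit at a lowest value of 5.78. Slfn4 and Slfn5 stayed under the median on all 9 arrays, at 4.07 to 4.19 and 3.74 to 4.30. The 2 mutants were compared with WT and with each other in limma with the experiments paired, a two-sided test with Benjamini-Hochberg adjustment over all genes tested and a threshold of 0.05. Precision is limited by there being 3 arrays of each genotype.

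All 10 NK cell markers examined, among them Ncr1, Eomes and Gzmb, reached the array median on all 9 arrays, and 7 of 8 T cell markers did so too, including Cd3e and Cd8a. Of 6 monocyte and macrophage markers 2 did (Cd14 and Cd68), and of 5 basophil and mast cell markers 2 (Mcpt8 and Cpa3). Of 6 neutrophil markers 1 did, of 5 B cell markers 0 and of 4 dendritic cell markers 0. Experiment 1 stood apart from the others along the first principal component, with 61% of the variance. The probe set of Tyk2 read 8.63 to 9.55 in Tyk2-/-, 8.43 to 8.63 in Tyk2K923E and 8.56 to 8.68 in WT, which checks no label because the positions of its probes and of the deletion are not given.

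Slfn2, a short member that protects tRNAs from cleavage and holds mouse T cells in quiescence, fell in Tyk2-/- cells. It read 9.16, 8.58 and 8.69 in experiments 1, 2 and 3 in Tyk2-/-, against 9.69, 9.41 and 9.25 in WT. All 3 Tyk2-/- arrays lay below all 3 WT arrays, and Slfn2 was lower in each experiment, by 0.53, 0.83 and 0.56 log2 units. The difference of -0.64 (SE 0.08, 95% interval -0.82 to -0.46), a 1.56-fold lower value, gave a limma adjusted p of 0.0446, and Slfn2 ranked 11 of 12579 genes by raw p. Without pairing the difference was the same, its SE was 0.17 and the adjusted p was 1. The call was also lost when any single array or any single experiment was left out (adjusted p 0.0603 to 0.644), with differences of -0.71 to -0.55.

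The same gene in Tyk2K923E cells read 9.01, 8.77 and 8.72, again below every WT array. Its difference from WT was -0.61 (SE 0.08, 95% interval -0.80 to -0.43, a 1.53-fold lower value), with a limma adjusted p of 0.0521 that missed the threshold. Slfn2 averaged 8.81 ± 0.31 in Tyk2-/-, 8.83 ± 0.16 in Tyk2K923E and 9.45 ± 0.22 in WT (SD, n = 3 each). Both mutants lay below WT by more than these spreads. The mutants differed from each other by only -0.03 (95% interval -0.21 to 0.16, limma adjusted p = 0.924). In bulk cultures, fewer cells of a type and less RNA per cell cannot be told apart.

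**Figure D2:**
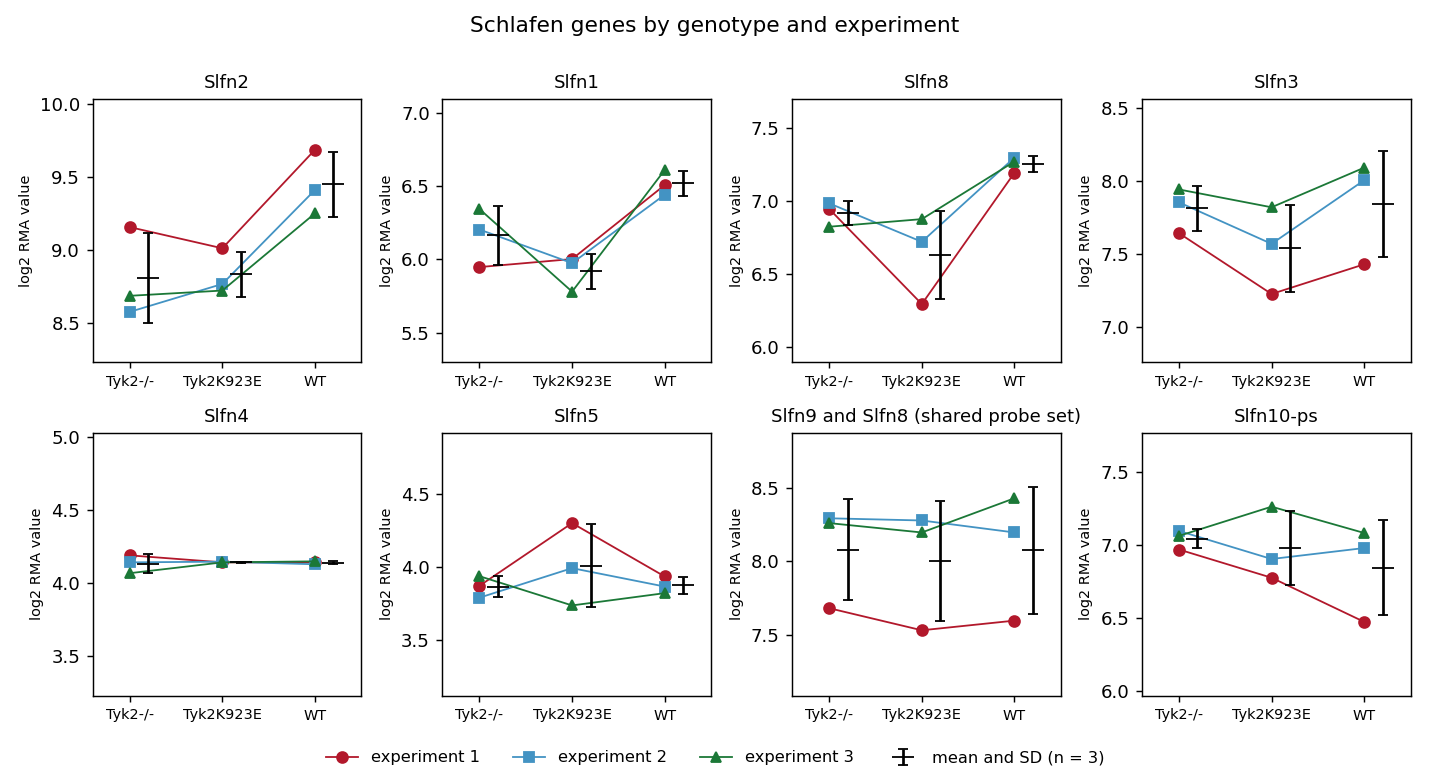
Log2 RMA values of 6 Schlafen members, of the probe set shared by Slfn9 and Slfn8 and of Slfn10-ps on all 9 arrays, with Tyk2-/- left, Tyk2K923E in the middle and WT right. Coloured symbols joined by lines are the 3 experiments and black bars are the mean and SD (n = 3): in Slfn2, Slfn1 and Slfn8 every mutant array lies below every WT array, whereas the shared probe set and Slfn10-ps overlap.

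Slfn1, the other short member, read 5.95, 6.21 and 6.35 in Tyk2-/- and 6.00, 5.97 and 5.78 in Tyk2K923E, against 6.51, 6.44 and 6.61 in WT. No mutant array overlapped a WT array. The difference from WT was -0.36 in Tyk2-/- (SE 0.11, 95% interval -0.61 to -0.10, limma adjusted p = 0.439) and -0.60 in Tyk2K923E (SE 0.11, 95% interval -0.86 to -0.35, limma adjusted p = 0.105), so that neither passed. The group means were 6.17 ± 0.20 in Tyk2-/-, 5.92 ± 0.12 in Tyk2K923E and 6.52 ± 0.08 in WT (SD, n = 3 each). Between the mutants, Slfn1 differed by 0.25 (95% interval -0.01 to 0.50, limma adjusted p = 0.516), a value that depended on single arrays: it was 0.37 without Tyk2-/- replicate 1, 0.15 without Tyk2-/- replicate 3 and 0.11 without Tyk2K923E replicate 3. Without Tyk2-/- replicate 1 its difference from WT in Tyk2-/- was -0.23. In experiment 1 the order of the mutants was the other way round, by -0.05.

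Slfn8, a long member with the ISRE letters in its window, read 6.95, 6.99 and 6.83 in Tyk2-/- and 6.30, 6.72 and 6.88 in Tyk2K923E, against 7.19, 7.30 and 7.27 in WT. Again no mutant array reached the lowest WT array. Its difference from WT was -0.34 in Tyk2-/- (SE 0.12, 95% interval -0.61 to -0.06, limma adjusted p = 0.458) and -0.62 in Tyk2K923E (SE 0.12, 95% interval -0.89 to -0.35, limma adjusted p = 0.116). The Tyk2K923E arrays spread most (SD 0.30, against 0.08 in Tyk2-/- and 0.05 in WT, n = 3 each), and their difference from WT was 0.90 below in experiment 1 but 0.39 below in experiment 3. Slfn8 differed between the mutants by 0.29 (95% interval 0.02 to 0.56, limma adjusted p = 0.494), carried by experiments 1 and 2 at 0.65 and 0.26, against -0.05 in experiment 3. That difference was 0.13 without Tyk2K923E replicate 1 and 0.17 without Tyk2-/- replicate 1. Without Tyk2-/- replicate 3 the difference of Slfn8 from WT in Tyk2-/- was -0.22.

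The probe set that the annotation gives to both Slfn9 and Slfn8 did not show this pattern. It read 7.68, 8.29 and 8.26 in Tyk2-/- and 7.53, 8.28 and 8.20 in Tyk2K923E, against 7.59, 8.20 and 8.43 in WT, so that the genotypes overlapped. Its difference from WT was 0.00 in Tyk2-/- (95% interval -0.17 to 0.18) and -0.07 in Tyk2K923E (95% interval -0.25 to 0.10), with limma adjusted p of 0.994 and 0.809 in a fit that also took probe sets with several symbols. The intervals exclude the -0.62 that the probe set of Slfn8 alone showed in Tyk2K923E. How much of the shared signal comes from either gene cannot be read from these values, and no level is given for Slfn9.

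**Figure D3:**
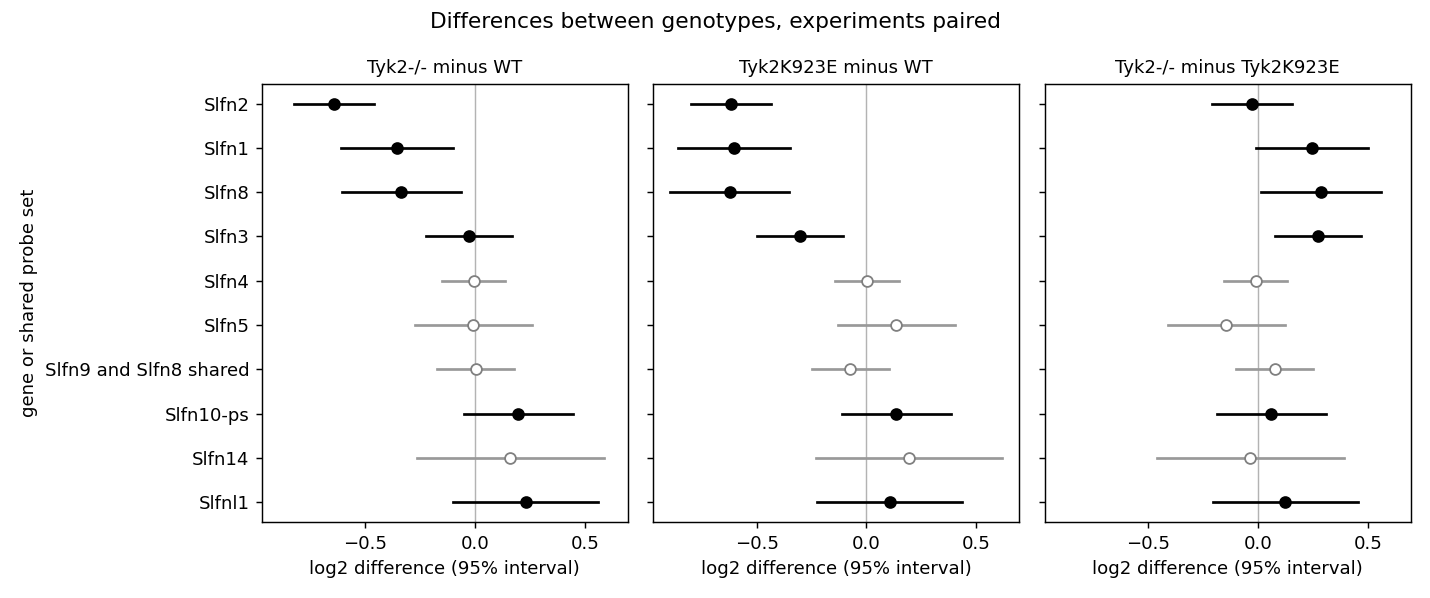
Log2 differences between genotypes with 95% intervals for the Schlafen genes and the shared probe set, from fits with the experiments paired. Filled symbols are genes tested over all 12579 genes and open symbols come from fits without the filter or with shared probe sets: Slfn2, Slfn1 and Slfn8 lie left of 0 in both mutants against WT, and Slfn3 does so in Tyk2K923E.

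Slfn3, of the intermediate group and known from T cells and from gut epithelium, had its lowest mean in Tyk2K923E. It read 7.64, 7.85 and 7.94 in Tyk2-/- and 7.23, 7.57 and 7.82 in Tyk2K923E, against 7.43, 8.003 and 8.09 in WT. In Tyk2K923E it was below the WT array of its experiment each time, by 0.20, 0.43 and 0.27, although the groups overlapped. The difference from WT was -0.03 in Tyk2-/- (95% interval -0.22 to 0.17, limma adjusted p = 0.941) and -0.30 in Tyk2K923E (SE 0.09, 95% interval -0.50 to -0.11, limma adjusted p = 0.257). Tyk2-/- lay above Tyk2K923E in all 3 experiments, by 0.42, 0.28 and 0.12, with a difference of 0.27 (95% interval 0.08 to 0.47) and a limma adjusted p of 0.452, which did not pass. Without Tyk2-/- replicate 1 it was 0.18.

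The remaining members were dim. Slfn4, a myeloid gene of the intermediate group that is lost as macrophages mature, read 4.07 to 4.19 in Tyk2-/-, 4.14 to 4.15 in Tyk2K923E and 4.13 to 4.15 in WT. Slfn5, a long nuclear member, read 3.79 to 3.94, 3.74 to 4.30 and 3.82 to 3.94 in Tyk2-/-, Tyk2K923E and WT. Without the filter their differences from WT were -0.01 and -0.01 in Tyk2-/- and 0.00 and 0.14 in Tyk2K923E, with limma adjusted p of 0.844 to 0.996. At these levels a difference may not be detectable.

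As a family, 4 of 4 tested members had a mean below WT in both mutants, beside 48.1% of all genes tested in Tyk2-/- and 49.1% in Tyk2K923E. For Slfn3 in Tyk2-/- that mean difference was only -0.03, it was above WT in experiment 1 by 0.21, and its sign turned when single arrays were left out. Of these, 1 fell in Tyk2-/- (Slfn2) and 0 passed in Tyk2K923E at the threshold over all genes, where 0.0636% of all genes tested fell in Tyk2-/- and 0.0636% in Tyk2K923E. At an unadjusted paired p under 0.05 there were 3 of 4 members in Tyk2-/- and 4 of 4 in Tyk2K923E, against 4.66% and 5.14% of all genes in the same direction. In the unpaired fit 0 of 4 passed in either comparison, against 0.0318% and 0.00795% of all genes, and 3 of 4 (Slfn1, Slfn2 and Slfn8) had an unadjusted p under 0.05 in each, against 1.22% and 2.41% of all genes in the same direction. The median difference of the 4 tested members was -0.34 in Tyk2-/- and -0.61 in Tyk2K923E, beside 0.00 in each over all 12579 genes. Both comparisons use the same WT arrays. The probe set shared by Slfn9 and Slfn8 is outside these counts, and it differed from WT by 0.00 in Tyk2-/- and by -0.07 in Tyk2K923E.

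By arrays, 3 members (Slfn1, Slfn2 and Slfn8) lay wholly below WT in Tyk2-/-, as did 2.74% of all genes tested, and the same 3 did so in Tyk2K923E, against 3.8%. Lower values in each of the 3 experiments were found for 3 members in Tyk2-/-, against 13.6% of all genes, and for 4 members in Tyk2K923E, against 14.6%. The members were chosen with Slfn2 known to be lower, so these counts describe the family on these arrays.

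In the paired limma comparison of Tyk2-/- with Tyk2K923E, 0 of 4 tested members passed, beside 0.0238% of all genes. Slfn3 and Slfn8 had an unadjusted p under 0.05, both higher in Tyk2-/-, against 4.79% of all genes in that direction, and 0 members did in the unpaired fit. The median difference was 0.26, beside 0.00 over all genes.

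Schlafen relatives outside the listed symbols did not pass in either mutant. Slfn10-ps, a neighbour listed in RefSeq as a miscellaneous RNA, read 6.97 to 7.10 in Tyk2-/-, 6.78 to 7.26 in Tyk2K923E and 6.47 to 7.08 in WT, with differences from WT of 0.20 and 0.14 (limma adjusted p = 0.628 and 0.751). In Tyk2-/- this was 0.50, 0.12 and -0.02 in experiments 1, 2 and 3, and in Tyk2K923E it was 0.30, -0.07 and 0.18. Slfnl1, a Schlafen-like gene on chromosome 4, differed by 0.23 and 0.11, and neither passed (limma adjusted p = 0.67 and 0.866). By experiment, Slfnl1 differed by 0.70, 0.00 and -0.01 in Tyk2-/- and by 0.22, -0.10 and 0.20 in Tyk2K923E, so that the Tyk2-/- value rested on experiment 1. Slfn14 was dim, at 3.46 to 4.29. Of the 10 nearest genes with a probe set around the cluster, 5 were tested, and they differed from WT by -0.26 to 0.18 in Tyk2-/- and by 0.05 to 0.53 in Tyk2K923E. None of these 5 passed in limma, the nearest being Gas2l2 at 0.53 in Tyk2K923E (adjusted p = 0.0684).

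Experiment 1 stood apart from experiments 2 and 3 on these arrays, and the members did not follow it together. Slfn2 was higher in experiment 1, by 0.53 in Tyk2-/-, 0.27 in Tyk2K923E and 0.35 in WT over the mean of the other 2 experiments. Slfn3 was lower there, by 0.25, 0.47 and 0.62 in Tyk2-/-, Tyk2K923E and WT. Averaged over genotypes the differences were 0.38 ± 0.13 for Slfn2 and -0.45 ± 0.18 for Slfn3 (SD, n = 3), against a median absolute difference of 0.14 and a 90th percentile of 0.489 over all genes tested, under which both lay. Slfn1 (-0.07 ± 0.23), Slfn8 (-0.18 ± 0.28), Slfn4 (0.03 ± 0.05) and Slfn5 (0.18 ± 0.23) had differences within their SD.

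With the genotypes pooled, the 3 arrays of experiment 1 lay wholly apart from the other 6 for none of these 6 members. Of all genes tested, 18.7% lay wholly lower and 14.5% wholly higher in experiment 1, and Slfn4 and Slfn5 were not among those tested. A difference between genotypes can by itself make pooled arrays overlap. Within each genotype, Slfn2 read higher in experiment 1 than in either other experiment, and Slfn3 read lower. The shared probe set of Slfn9 and Slfn8 did lie apart: it read 7.53 to 7.68 in experiment 1, against 8.20 to 8.43 in the other experiments. These values carry no test, because experiment 1 was singled out from these arrays.

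**Figure D4:**
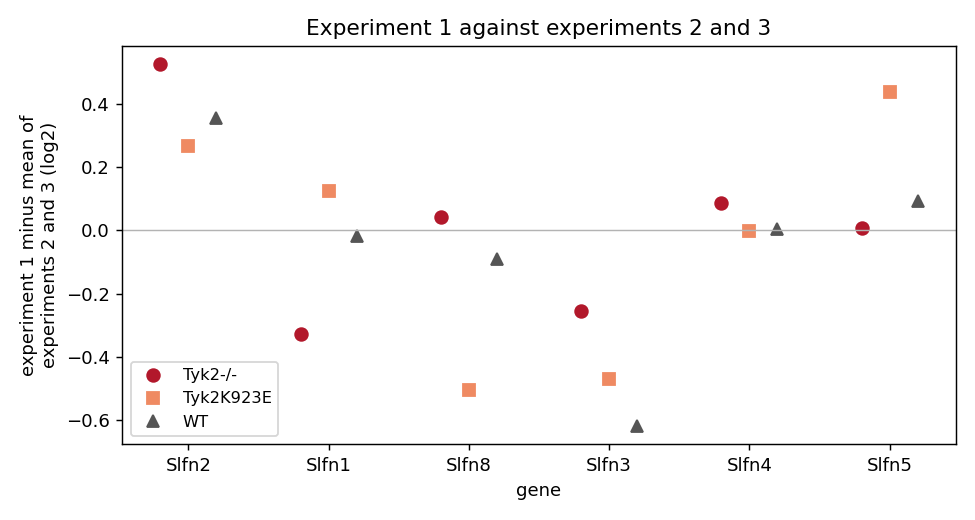
Experiment 1 minus the mean of experiments 2 and 3, in log2 units, for each Schlafen member with a probe set of its own and each genotype. Slfn2 lies above 0 and Slfn3 below 0 in all 3 genotypes, whereas Slfn1 and Slfn8 fall on both sides.

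After the mean of each experiment was taken away, the genes most like each tested member over the 9 arrays were found by Pearson r, as a description with the experiments and arrays in common. Slfn2 was most like Myd88 (r = 0.992), the chemokine gene Ccl5 (0.983) and Macrod1 (0.981), which differed from WT by -0.12, -1.05 and -0.14 in Tyk2-/- and by -0.12, -1.01 and -0.13 in Tyk2K923E. Slfn1 was most like Mndal (0.985), Xaf1 (0.979), an interferon-stimulated gene, and Ndufb8 (0.973). They differed from WT by -0.22, -0.36 and -0.07 in Tyk2-/- and by -0.41, -0.58 and -0.13 in Tyk2K923E. Slfn8 was most like Ifnl3 (0.987), Lcp2 (0.972) and Zyx (0.968), which differed by -0.18, -0.07 and -0.04 in Tyk2-/- and by -0.407, -0.175 and -0.1 in Tyk2K923E. Slfn3 was most like Nat8f3 (0.98), Ski (0.978) and Tcf12 (0.973), which differed by -0.02, -0.03 and -0.05 in Tyk2-/- and by -0.18, -0.22 and -0.16 in Tyk2K923E. These r values are the highest of 12578 genes compared with each member, so they are high in part by that choice. Among the members themselves, r over the same 9 values was between 0.51 for Slfn2 with Slfn3 and 0.81 for Slfn2 with Slfn8.

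Other genes of the interferon response, from a list written without the Schlafen genes, were lower in 32 of 33 tested members in Tyk2-/- and in 33 of 33 in Tyk2K923E, with medians of -0.29 and -0.25, where 48.1% and 49.1% of all genes tested were lower. In Tyk2-/- 2 of 33 passed, beside 0.0636% of all genes that fell: Ifi27 fell by 1.35 (limma adjusted p = 0.000914) and Rtp4 fell by 1.11 (0.0446). In Tyk2K923E 4 of 33 passed, beside 0.0636% of all genes that fell. Ifi27 fell by 1.80 (limma adjusted p = 0.000278), Rtp4 fell by 1.40, Mx1 fell by 0.96 and Lgals3bp fell by 0.63 (0.0375 each). Mx1 and Lgals3bp did not pass in Tyk2-/-. In the unpaired fit Ifi27 alone of this list passed in each mutant, beside 0.0318% of all genes in Tyk2-/- and 0.00795% in Tyk2K923E in either direction. Irf9, a transcription factor of the interferon response, and Usp18, a brake on the receptor, differed by -0.49 and -1.26 in Tyk2-/- and by -0.45 and -1.19 in Tyk2K923E (limma adjusted p 0.0649 to 0.0915). Of 19 tested genes of the interferon receptors and their signalling, 0 passed in either mutant in limma, with medians of -0.06 and -0.13, and 4 and 8 had an unadjusted p under 0.05, beside 9.08% of all genes in Tyk2-/- and 10% in Tyk2K923E in either direction.

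Quiescence genes were examined because of the role of the short members. Of 15 tested, Btg2 fell by 0.50 in Tyk2-/- (limma adjusted p = 0.0446, and 1 unpaired) and 0 rose. In Tyk2-/- 5 of 15 had an unadjusted p under 0.05, beside 9.08% of all genes tested in either direction. In Tyk2K923E 0 passed, 1 of 15 had an unadjusted p under 0.05, beside 10% of all genes, and Btg2 differed by -0.13. The medians were -0.08 and -0.07. Cell cycle genes had positive differences in 17 of 17 in Tyk2-/- and in 3 of 17 in Tyk2K923E, with medians of 0.17 and -0.08. Of all genes tested, 48.1% and 49.1% were lower than WT. In limma 0 cell cycle genes had an unadjusted p under 0.05 in either comparison, beside 9.08% and 10% of all genes.

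Slfn1 and Slfn2 are also genes of T cells, so T cell markers are given beside the members. They were lower than WT in 6 of 7 tested in Tyk2-/- and 7 of 7 in Tyk2K923E, with medians of -0.10 and -0.36. Of all genes tested, 48.1% and 49.1% were lower. In the paired limma fit 0 of 7 passed in either mutant. There, 0 of 7 in Tyk2-/- and 3 of 7 in Tyk2K923E had an unadjusted p under 0.05, beside 9.08% and 10% of all genes in either direction. Their summed linear values over 8 markers ranged from 5855 to 8502 in Tyk2-/-, from 4659 to 6150 in Tyk2K923E and from 5594 to 8439 in WT. Cd8a differed by -0.32 and -0.92 (limma adjusted p = 0.695 and 0.173), and Cd4 stayed near the array median at 5.32 to 5.58. Basophil and mast cell markers had sums of 1319 to 2273 in Tyk2-/-, 1560 to 2346 in Tyk2K923E and 1058 to 1368 in WT over 5 markers. Ms4a2, Fcer1a and Cd200r3 were under the median on every array, whereas Mcpt8 (9.87 to 11.06) and Cpa3 (6.13 to 7.6) reached it on all 9. Mcpt8 differed from WT by 0.49 and 0.77 (limma adjusted p = 0.287 and 0.0684), and Cpa3 by -0.02 and 0.91 (0.989 and 0.19). Monocyte and macrophage markers had sums of 544.1 to 632.3 in Tyk2-/-, 490.3 to 672.5 in Tyk2K923E and 505.5 to 747.8 in WT over 6 markers. Of 3 tested, 2 were lower than WT and 1 was higher in each mutant, with medians of -0.08 and -0.17. The higher one was Cd14, at 0.20 and 0.42 (limma adjusted p = 0.472 and 0.102). C1qa differed by -0.13 and -0.17, and Cd68 by -0.08 and -0.24.

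The NK cell markers had values below WT in 6 of 10 in Tyk2-/- and 7 of 10 in Tyk2K923E, with medians of -0.17 and -0.13. Of all genes tested, 48.1% and 49.1% were below WT. Itga2, which encodes the antigen bound by the DX5 beads, fell by 0.71 in Tyk2K923E (limma adjusted p = 0.0375, and 0.155 unpaired) and differed by -0.39 in Tyk2-/- (0.254). Klrk1, an activating receptor, differed by -0.32 in Tyk2-/- and by -0.47 in Tyk2K923E (limma adjusted p = 0.287 and 0.0734). In Tyk2-/- 4 of 10 and in Tyk2K923E 5 of 10 had an unadjusted p under 0.05, beside 9.08% and 10% of all genes in either direction. The summed linear values of the 10 NK cell markers overlapped, at 32000 to 32620 in Tyk2-/-, 31240 to 33460 in Tyk2K923E and 31210 to 33810 in WT. Like the other marker sums, these are weighted toward the brightest markers, here Gzmb (13.23 to 13.41) and Prf1 (12.87 to 13.14). A fall of Itga2 (7.62 to 8.62) hardly moves them, so their overlap does not show that each marker was alike. The part of any of these cell type markers in the Schlafen differences was not tested.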

How the data were processed

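Affymetrix arrays of cultured splenic NK cells from 3 genotypes, 3 arrays each, were analysed. The deposited values were log2 units, which the authors made with RMA in Partek 6.6 per the submitters' processing notes, and were used as they stood. The RMA version, build and annotation version are not given in the sources used here. Of 41345 probe sets, 23521 carry 1 gene symbol in the platform annotation, 1814 carry several and 16010 are not listed, and only those with 1 symbol were tested. The filter on low values (array median on at least 3 of 9 arrays) left 12579 genes. Genes were fitted with limma 3.58.1 in R 4.3.3 (lmFit and eBayes, all 9 arrays, genotype plus experiment, prior degrees of freedom 4.008).

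The experiment numbers pair the samples, since the labels number experiments that each hold every genotype. Deviations from the genotype means correlated at 0.383 to 0.787 in 9 pairs of arrays that shared an experiment and at -0.71 to 0.559 in 18 that did not. Deviations within a genotype sum to 0, which lowers the values between experiments. All negative values involved experiment 1. Between experiments 2 and 3 the values were 0.253 to 0.559, against 0.383 to 0.6 within either, so they hardly tell those 2 experiments apart. Each pool of mice is a separate sample. In the paired fit, p-values measure how much genotype differences varied between experiments, after shifts shared by an experiment were removed. In the unpaired fit they measure the spread between pools of the same genotype.

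Members and lists were chosen with earlier results of these data known. The rule for named genes took every member, the other Schlafen symbols, the 5 nearest genes with a probe set on each side of the cluster, up to 4 genes of a list by paired p in Tyk2-/- and the 3 genes most like each tested member. Mx1, Lgals3bp, Cd4 and the marker genes are named as members of these lists, chosen after their values were seen. Sequences and gene order come from RefSeq (GRCm38.p6). The fit was tested on simulated data. Alternatives were no or a random block, only 2 genotypes, other filters, centring, quantile normalisation, an intensity trend, array weights, the mean over probe sets, leaving out arrays or experiments and, added after seeing the data, probe sets with several symbols.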

Additional observations from a re-analysis of the deposited data

How the results depend on the processing

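Without the replicate block, 0 Schlafen members passed in Tyk2-/- against WT, and the count of all genes was 4 in Tyk2-/- and 1 in Tyk2K923E against WT, compared with 11 in each with pairing. Slfn2 in Tyk2-/- was also not called with a random replicate block (0 members, adjusted p = 0.163), with only the 2 genotypes compared (0 members, 0.209), with no filter (0 members, 0.18) or with probe sets of several symbols added (0 members, 0.0516), settings in which the members of the other 2 comparisons gave 0 calls as reported. In Tyk2K923E against WT 1 member, Slfn2, passed with the 70th percentile filter (adjusted p = 0.0351, where Slfn1 was not tested), median centring (0.0412), quantile normalisation (0.0434) and an intensity trend (0.0295), and 2 passed with array weights, Slfn2 at 0.0247 and Slfn1 at 0.0499. Over all genes, the counts in Tyk2-/- were 6 with only the 2 genotypes, 4 with no filter, 19 with the 70th percentile filter, 22 with a trend, 26 with array weights and 7 with shared probe sets, and in Tyk2K923E 2, 1, 29, 41 and 66 in the first 5 of these settings, 20 with centring and 17 with quantile normalisation. Leaving out single arrays or experiments gave 0 members in each case in Tyk2-/- and 0 to 1 in Tyk2K923E (Slfn2 at an adjusted p of 0.0239 without Tyk2-/- replicate 2), and 3 to 11, 1 to 34 and 2 to 6 genes in Tyk2-/- and Tyk2K923E against WT and between the mutants. The probe sets of Slfn1, Slfn2 and Slfn8 alone kept a negative difference from WT in all of these settings that tested them. The difference of Slfn3 between Tyk2-/- and WT ranged from -0.15 to 0.04, and that of Slfn2 between the mutants from -0.113 to 0.062. The cause of these shifts was not tested. The differences of experiment 1 moved by less than their SD under every alternative run.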
